A study of Mus musculus with 12 samples.

Results

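Segment 2 and segment 3 of the mouse epididymis were compared after ligation of the efferent ducts, in the 4 libraries of the series that hold these tissues out of 12 libraries in all. The libraries were chosen by their labels: 2 of ligated segment 2 and 2 of ligated segment 3, with 1 of each in each of the sequencing batches 3017 and 3097, so that every comparison could be paired by batch. All mice were wild type. In the ligated groups a suture closed the efferent ducts where they reach the caput, the head of the epididymis, and the other groups were segments of epididymides that had not been ligated. Each library held polyadenylated RNA from a pool of 2 mice. Segment 1 after ligation and control segments 2 and 3, also 2 libraries each, are used only beside the values of the 4. Not given in the sources used here are the age of the mice, the time after ligation and whether the segments of a batch came from the same mice. No label says that the libraries of a group came from different mice, so p-values measure only the spread between these libraries, which may be technical.

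The epididymis is a long coiled tubule in which sperm mature. Its principal cells secrete proteins into the lumen, and each stretch of the duct is known for its own mixture of them: defensins, lipocalins, protease inhibitors, ribonuclease-like proteins and cysteine-rich secretory proteins, many of which bind to sperm. The efferent ducts bring sperm, fluid, androgens and growth factors from the testis, and the most proximal part of the epididymis is known to depend on such luminal factors for much of its gene expression.

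The 4 libraries held 36352153 to 39650919 counts, within the range of 30485275 to 42313728 over all 12. Gpx5, which encodes a secreted glutathione peroxidase typical of caput principal cells, took 3.56% to 4.72% of the counts in the 4 libraries, and mitochondrial genes took 2.14% to 2.88%. Prm2, the sperm protamine gene, was at 0 to 0.236 CPM in the 4 libraries and at 29.4 to 66.5 CPM in the 4 control libraries of the same segments. CPM is the usual read count relative to library size, here after TMM scaling, which keeps a few abundant genes from setting the size. The libraries of a group differed by more than counting noise, as their chi-square over genes, divided by its degrees of freedom, was 50.2 in ligated segment 2 and 46.5 in ligated segment 3.

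Ligated segment 3 held more RNA for a set of secreted epididymal proteins, with the smallest adjusted p for Rnase13 at 4.76-fold, Spink2 at 4.17-fold and Bsph1 at 3.93-fold. Ligated segment 2 held more RNA of the protease inhibitor genes Wfdc3 and Wfdc16 and of the glutathione transferase gene Gsta4, at 1.93-, 1.83- and 1.72-fold. In edgeR's test of the 4 libraries alone, 8 of 18 smooth muscle genes (44.4%) and 11 of 27 lysosomal genes (40.7%) were also higher there. Their steps were smaller, and the share over all genes was 3.32%. In the same libraries limma-voom called 0 of the 18 and 1 of the 27. How many genes passed depended on which libraries shared the estimate of the spread. edgeR's quasi-likelihood test on all 12 libraries, with batch in the model, called 0 of 19213 genes (0%) at a Benjamini-Hochberg adjusted p under 0.05. Its smallest adjusted p was 0.371, and 1344 genes had an unadjusted p under 0.05. With the same libraries DESeq2 called 31 genes and limma-voom 0. Given a batch term of their own for ligated segments 2 and 3, edgeR's test of the 12 libraries still called 0. A paired fit of the 4 libraries alone called 1353 genes (7.04%), 638 higher in segment 2 (3.32%) and 715 higher in segment 3 (3.72%). A fit of the 6 ligated libraries called 152 genes (0.791%), 50 higher in segment 2 (0.26%) and 102 higher in segment 3 (0.531%), and all 152 were among the 1353. The common biological coefficient of variation was 0.153 over the 12 libraries, 0.107 over the 6 and 0.0858 over the 4. The 4-library fit has 1 residual degree of freedom, and in the same 4 libraries limma-voom called 186 genes, DESeq2 555, and edgeR without the batch term 4. With library totals in place of TMM, 927 genes were higher in segment 2 and 541 in segment 3.

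In what follows "called" means an adjusted p under 0.05 in edgeR's quasi-likelihood test of the 4 libraries, and genes also called in the 6 ligated libraries are named as such. The "12 steepest" genes of a direction are the called genes with the largest differences among those of at least 5 CPM in the higher segment, the same direction in both batches and an established gene symbol. Log2 differences are segment 2 minus segment 3 from the 4-library fit, and are negative where segment 3 was higher. The ± value is a standard error derived from the test, as the size of the difference over the square root of its F statistic. The degrees of freedom behind it differ between genes, so it does not give the p-value alone. Levels are given with batch 3017 first and batch 3097 second. The median called gene was 1.34-fold higher in segment 2 or 1.37-fold higher in segment 3, and 35 and 141 called genes differed by at least 2-fold. Both libraries of segment 3 were above both of segment 2 for 553 of the 715 genes called higher there (77.3%), against 17.2% of all genes tested. Both libraries of segment 2 were above both of segment 3 for 568 of the 638 genes called higher there (89.2%), against 17.6% of all. As the genes were called from these same 4 libraries, higher shares among them are built in and add no support to the calls.

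**Figure D1:**
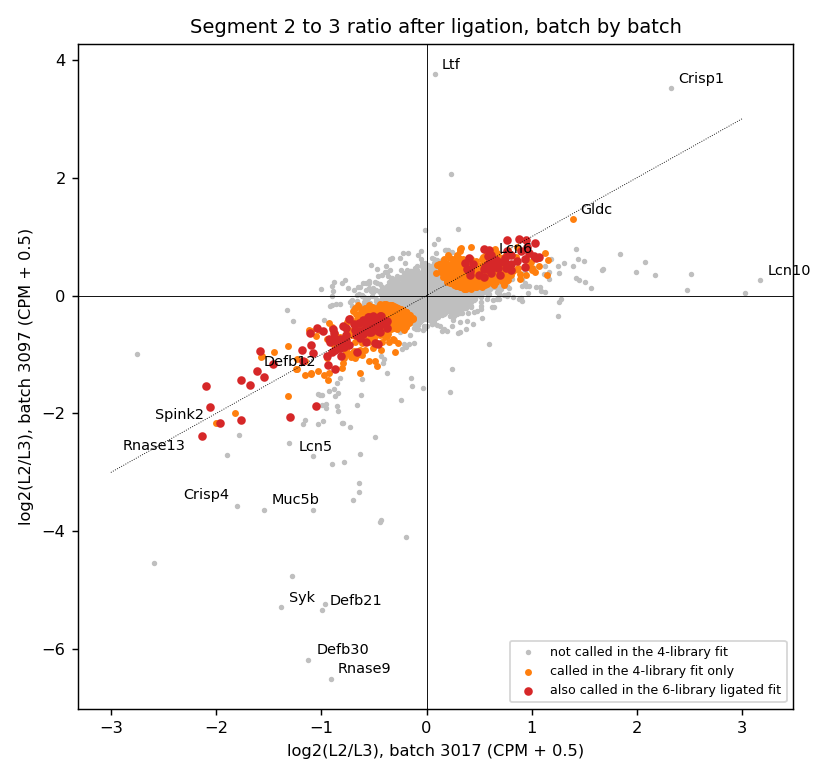
Each point is a gene whose mean over the 4 libraries reached 5 CPM; the axes give log2(segment 2/segment 3) after ligation within batch 3017 (horizontal) and within batch 3097 (vertical), from CPM plus 0.5, with the dotted line at equal ratios, orange for genes called in the 4 libraries only, red for those also called in the 6 ligated libraries and grey for the rest. Called genes lie near that line in the upper right and lower left, while genes such as Rnase9, Defb30, Syk and Crisp4 lie far below it, with a larger excess of segment 3 in batch 3097 than in batch 3017.

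Rnase13, on the minus strand of chr14:51921362-51922773 (GRCm38), is a member of the ribonuclease A family expressed mainly in the epididymis. It stood at 119 and 96.9 CPM in segment 2 and 525 and 505 CPM in segment 3. Both libraries of segment 3 were far above both of segment 2, and the batches lay close together within each segment. The log2 difference was -2.25 ± 0.08 (adjusted p = 2.69e-14; 5.27e-06 in the 6 ligated libraries). Spink2 (chr5:77205107-77211471), a Kazal-type serine protease inhibitor, was at 59.0 and 46.0 CPM in segment 2 and 232 and 207 CPM in segment 3, again with no overlap. Its log2 difference was -2.06 ± 0.07 (adjusted p = 2.69e-14). Bsph1 (chr7:13450841-13473449), a binder-of-sperm protein made in the epididymis, was at 39.6 and 38.6 CPM in segment 2 and 166 and 144 CPM in segment 3. Its 2 segment 2 libraries were nearly equal and below both of segment 3, with a log2 difference of -1.97 ± 0.07 (adjusted p = 2.72e-14). In the 12-library fit the unadjusted p of these genes was 0.0239, 0.00985 and 0.0187. All 3 were also called in the 6 ligated libraries.

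The promoters of the genes with the smallest adjusted p among the 12 steepest toward segment 3 (Rnase13, Spink2 and Trpc5os) and toward segment 2 (Wfdc3) are shown, of those with an entry in RefSeq's table, because the results turn on these genes. Each line gives the 250 bases before the start, 5′ to 3′, from RefSeq on GRCm38.p6. Capitals mark matches, on either strand, to AGGAAG, a core of ETS factor sites, or to AGAACA, a half-site bound by steroid receptors.
Rnase13, chr14:51922774-51923023, minus strand: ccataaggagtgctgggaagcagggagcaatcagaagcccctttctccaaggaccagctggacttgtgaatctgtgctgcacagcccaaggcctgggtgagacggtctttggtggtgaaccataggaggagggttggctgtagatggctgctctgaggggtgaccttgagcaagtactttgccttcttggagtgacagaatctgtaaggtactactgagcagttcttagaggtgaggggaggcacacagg
Spink2, chr5:77211472-77211721, minus strand: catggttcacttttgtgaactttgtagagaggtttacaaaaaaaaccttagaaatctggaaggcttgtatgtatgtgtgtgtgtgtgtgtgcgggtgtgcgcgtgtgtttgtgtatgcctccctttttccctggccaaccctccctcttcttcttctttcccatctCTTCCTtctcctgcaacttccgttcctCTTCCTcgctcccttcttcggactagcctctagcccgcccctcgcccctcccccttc
Trpc5os, chrX:144456332-144456581, plus strand: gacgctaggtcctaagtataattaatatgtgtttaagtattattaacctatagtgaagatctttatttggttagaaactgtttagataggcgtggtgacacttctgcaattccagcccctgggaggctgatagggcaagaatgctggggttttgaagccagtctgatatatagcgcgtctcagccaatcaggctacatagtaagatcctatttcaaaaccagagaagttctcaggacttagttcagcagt
Wfdc3, chr2:164743268-164743517, minus strand: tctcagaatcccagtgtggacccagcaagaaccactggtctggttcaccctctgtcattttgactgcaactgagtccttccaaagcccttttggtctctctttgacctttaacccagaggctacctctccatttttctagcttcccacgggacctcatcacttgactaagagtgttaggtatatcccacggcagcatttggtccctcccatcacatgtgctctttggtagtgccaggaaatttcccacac
Of these 4, only Spink2 holds matches, 2 of AGGAAG, both read from the other strand. Among the 12 steepest genes in each direction, promoters of 10 higher in segment 2 and 8 higher in segment 3 were in the table. In the whole window of 300 bases, which runs to 50 bases past the start, AGAACA was in 2 of the 10, one of them Wfdc3 with its matches past the start, and in 0 of the 8, against 19.0% of 27025 promoters, and AGGAAG in 1 and 1, against 35.1%. Both motifs were searched on both strands.

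The other genes among the 12 steepest toward segment 3 were at lower levels. Trpc5os, which lies on the opposite strand within the channel gene Trpc5, was at 16.8 and 12.6 CPM in segment 2 and 58.1 and 55.9 CPM in segment 3, with no overlap and a log2 difference of -1.95 ± 0.09 (adjusted p = 3.23e-10). Nrip2, which encodes a protein that binds nuclear receptors, was at 1.76 and 2.85 CPM in segment 2 and 9.20 and 9.20 CPM in segment 3. The amino acid transporter gene Slc6a18 was at 1.40 and 1.85 CPM in segment 2 and 4.56 and 8.72 CPM in segment 3. Both showed the 2 segments apart in each batch, at log2 differences of -2.00 ± 0.18 and -1.98 ± 0.20. Pkib, an inhibitor of the cyclic AMP-dependent protein kinase, was at 2.38 and 2.56 CPM in segment 2 and 8.75 and 8.22 CPM in segment 3 and differed by -1.77 ± 0.17. The remaining members were Trnp1, the carboxylesterase gene Ces1f, the dopamine receptor gene Drd4, the adhesion gene Cntn5 and Evx1os, at log2 differences from -2.38 (Trnp1) to -1.73 (Cntn5). Evx1os overlaps Evx1 and Trpc5os overlaps Trpc5, each on the opposite strand, and as no source used here gives the strand setting of the counting, their counts are uncertain. Of the 12 genes, 11 were also called in the 6 ligated libraries, the exception being Ces1f, and in all 12 both libraries of segment 3 were above both of segment 2.

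Secreted antimicrobial and sperm-coating proteins differed in both directions. Of 31 beta-defensins tested, small secreted peptides that act on microbes and coat sperm, 8 were called higher in segment 3 and 4 higher in segment 2 (25.8% and 12.9%, against 3.72% and 3.32% of all genes). Their median log2 difference was -0.39, against 0.00279 over all genes. Among the called defensins the largest fold was that of Defb19, a gene of low level at 0.803 and 0.755 CPM in segment 2 and 3.06 and 6.09 CPM in segment 3 (5.63-fold, adjusted p = 4.59e-06). Defb12 was at 227 and 379 CPM in segment 2 and 694 and 925 CPM in segment 3 and stood higher in segment 3 in each batch, with a log2 difference of -1.44 ± 0.08 (adjusted p = 8.42e-10, 0.00284 in the 6 ligated libraries). Defb15 was at 190.2 and 235 CPM in segment 2 and 519.6 and 456 CPM in segment 3 (-1.19 ± 0.12, adjusted p = 0.00206), and the step was larger in batch 3017. Defb18 went the other way, at 331 and 379 CPM in segment 2 and 167 and 254 CPM in segment 3 (0.79 ± 0.10, adjusted p = 0.00103). Spag11b, a defensin-like gene of the caput, was also higher in segment 2 (4292 and 4024 against 3261 and 3049 CPM; log2 difference 0.41 ± 0.07). Reads of close relatives in these families may have been split or dropped in the counting, which no source used here describes.

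Protease inhibitors were called in both directions. Of 22 Spink and WAP-domain genes tested, 7 were called higher in segment 2 (31.8%) and 6 higher in segment 3 (27.3%), against 3.32% and 3.72% of all genes. Spink11 was at 838 and 793 CPM in segment 2 and 2092 and 1431 CPM in segment 3, above segment 2 in both batches, with a log2 difference of -1.07 ± 0.11 (adjusted p = 0.00029). Spink12 was not called, at 634 and 897 CPM in segment 2 and 681 and 862 CPM in segment 3, where the batches were further apart than the segments (-0.01 ± 0.07, adjusted p = 0.968). Wfdc3 was at 39.5 and 47.7 CPM in segment 2 and 21.2 and 24.3 CPM in segment 3. Wfdc16 was at 53.01 and 51.9 CPM in segment 2 and 25.0 and 33.0 CPM in segment 3. For both, the 2 libraries of segment 2 were above the 2 of segment 3, by 0.94 ± 0.08 (adjusted p = 4.13e-08) and 0.88 ± 0.10 (adjusted p = 0.000505), and both were called in the 6 ligated libraries. Eppin, an inhibitor that coats sperm, was at 295 and 348 CPM in segment 2 and 185 and 256 CPM in segment 3 and higher in segment 2 by 0.57 ± 0.07. Wfdc6b was higher in segment 3, at 288 and 239 CPM in segment 2 and 392 and 336 CPM in segment 3 (-0.46 ± 0.07, adjusted p = 0.000165).

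These WAP-domain genes lie side by side on chromosome 2. In the cluster from Wfdc2 to Wfdc3 (chr2:164562413-164745931), singled out after its values were seen, 14 genes of the Wfdc, Eppin and Spint families were tested. Wfdc2, Eppin, Wfdc16, Wfdc10 and Wfdc3 were called higher in segment 2, and Wfdc8, Wfdc6b and Wfdc9, which lie among them, higher in segment 3. Wfdc9 was at 105 and 107 CPM in segment 2 and 226 and 165 CPM in segment 3. Wfdc8 was at 480.4 and 343 CPM in segment 2 and 656 and 471 CPM in segment 3. Both were higher in segment 3 in each batch. Wfdc8 overlaps Wfdc6b, and Wfdc9 overlaps Wfdc10, on opposite strands, so their counts are uncertain without the strand setting. In the lipocalin cluster from Ptgds to Lcn9 (chr2:25466709-25825537), 3 of 10 genes tested were called higher in segment 2 and 0 higher in segment 3. Of all genes 3.32% and 3.72% were called in these directions.

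Lipocalins are secreted carriers of small lipophilic molecules. Of 11 tested, Lcn2, Lcn6, Lcn8 and Lcn9 were called higher in segment 2 (36.4%) and 0 higher in segment 3. The shares over all genes were 3.32% and 3.72%. Lcn6 was at 809 and 1057 CPM in segment 2 and 527 and 681 CPM in segment 3, higher in segment 2 in both batches by nearly the same ratio (0.64 ± 0.07, adjusted p = 4.16e-06). Lcn2 was at 1763 and 1709 CPM in segment 2 and 1162 and 1366 CPM in segment 3 (0.47 ± 0.08, adjusted p = 0.000646). Lcn8 and Lcn9 are known as genes of the most proximal epididymis. Lcn8 was at 8.84 and 8.91 CPM in segment 2 and 5.68 and 5.66 CPM in segment 3, and its 2 batches were nearly equal. Lcn9 was at 1.74 and 2.41 CPM in segment 2 and 1.18 and 0.733 CPM in segment 3. Lcn5, a retinoid-binding lipocalin, ran the other way at 4411 and 1047 CPM in segment 2 and 10900 and 5958 CPM in segment 3, and its uneven step was not called (-1.90 ± 0.60, adjusted p = 0.502). The summed level of the list was 10000 and 6901 CPM in segment 2 and 15140 and 10890 CPM in segment 3, higher in segment 3 within each batch, while its 4 called members were higher in segment 2.

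The serpins, ribonucleases and cystatins also held members that differed. Serpina1f was at 781 and 248 CPM in segment 2 and 1677 and 617 CPM in segment 3: segment 3 was higher within each batch, yet the segment 2 library of batch 3017 was above the segment 3 library of batch 3097, so the groups overlapped. Paired by batch, the log2 difference was -1.20 ± 0.08 (adjusted p = 8.47e-10), and it was not called in the 6 ligated libraries (0.673). In the 12-library fit without segment 3 of batch 3017 its direction turned, to 0.50. That fit no longer pairs the segments in batch 3017, and its batch term is shared by all groups. Of 15 serpins tested, 3 were called in each direction (20% each, against 3.32% and 3.72% of all genes). Rnase12 was at 288 and 179 CPM in segment 2 and 462 and 309.9 CPM in segment 3 (-0.73 ± 0.07, adjusted p = 5.82e-07). Rnase12 and Rnase13 were the 2 of 9 RNase A genes called, both higher in segment 3 (22.2%, against 3.72% of all genes). Cst12, a cystatin, was at 2.25 and 12.9 CPM in segment 2 and 0.419 and 3.84 CPM in segment 3: segment 2 was higher in each batch (1.93 ± 0.20, adjusted p = 1.32e-06), although the batches lay further apart than the segments. Lypd8, a secreted Ly6-domain protein, was at 10430 and 11370 CPM in segment 2 and 6682 and 8048 CPM in segment 3, higher in segment 2 with no overlap (0.58 ± 0.07, adjusted p = 1.64e-05), and Ly6g5b of the same family ran the other way, at 6.20 and 9.69 CPM in segment 2 and 15.2 and 23.7 CPM in segment 3 (-1.28 ± 0.11).

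**Figure D2:**
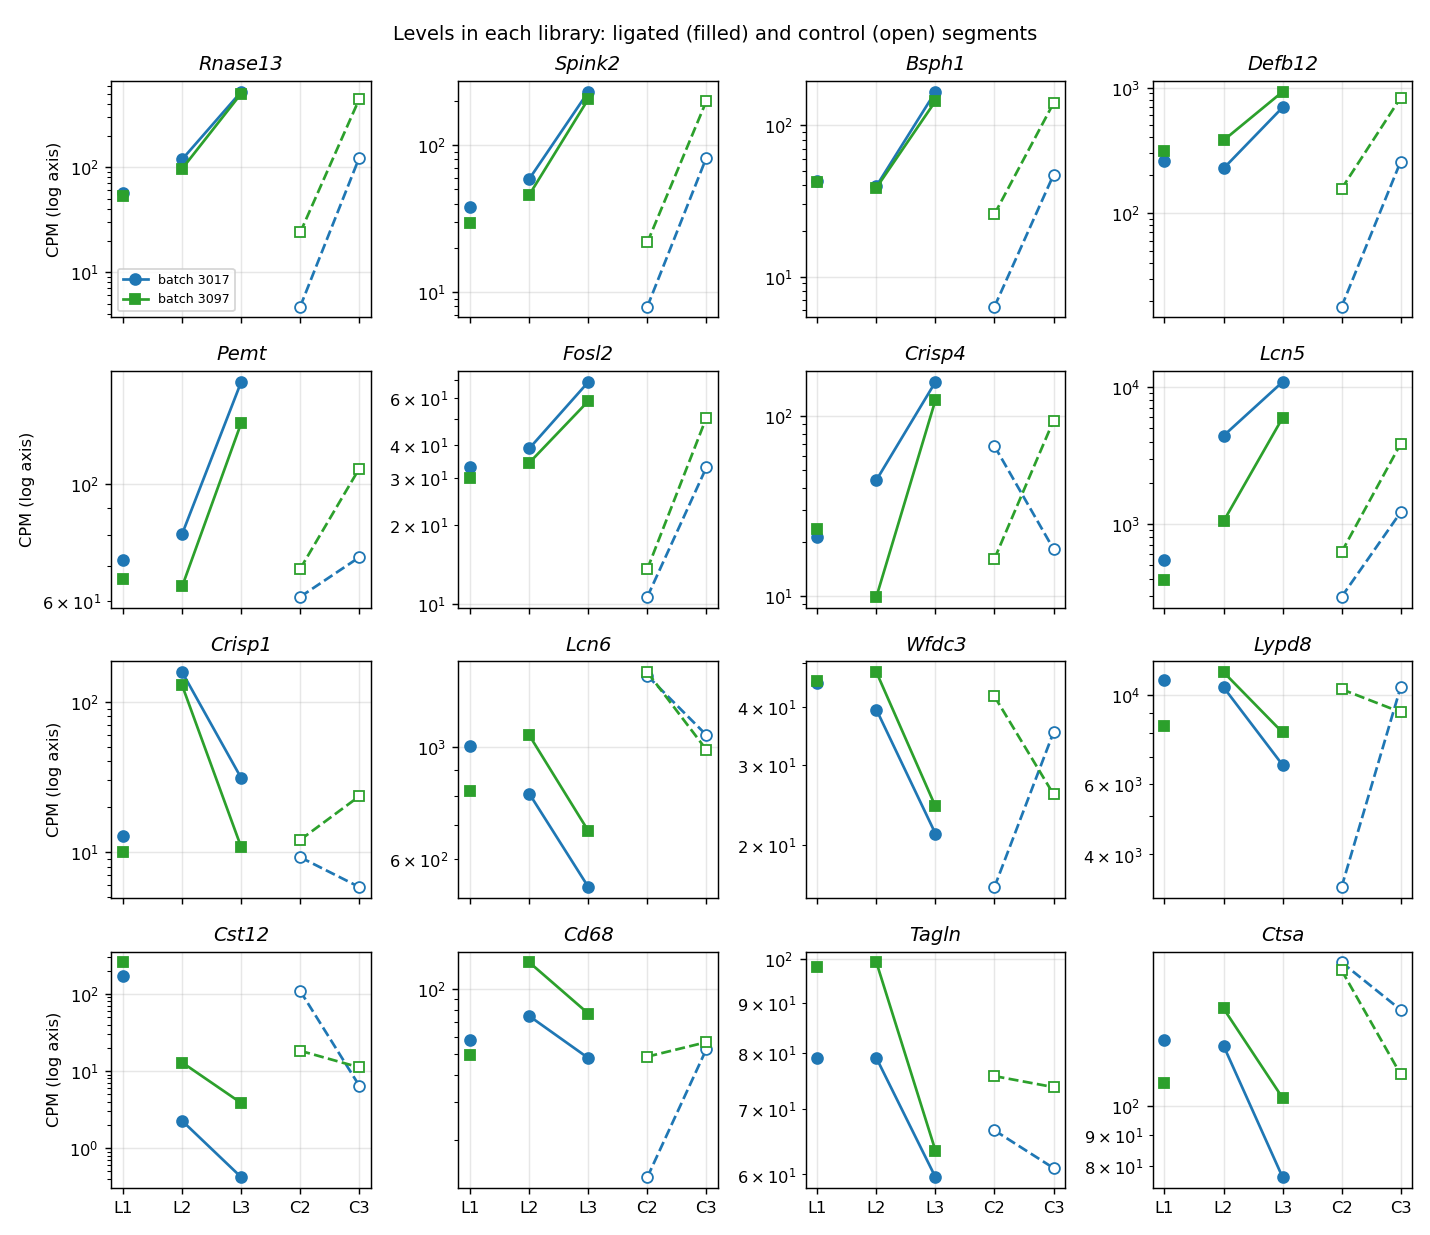
Level of 16 genes in each library (CPM, log axis; each panel has its own scale), with ligated segments 1, 2 and 3 (L1, L2, L3) as filled marks, control segments 2 and 3 (C2, C3) as open marks, circles for batch 3017 and squares for batch 3097, and lines joining segments 2 and 3 of a batch. Rnase13, Spink2 and Bsph1 stand higher in segment 3 in both batches, Crisp1, Lcn6 and Wfdc3 stand higher in segment 2, and Crisp4 shows a steeper step in batch 3097 than in batch 3017.

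Among the 12 steepest genes toward segment 2, steps were smaller, from 0.88 (Degs2) to 1.93 (Cst12) on the log2 scale, and 5 of the 12 were also called in the 6 ligated libraries. Ihh, which encodes the signal protein Indian hedgehog, was at 19.4 and 17.8 CPM in segment 2 and 8.64 and 10.6 CPM in segment 3. Both segment 2 libraries were above both of segment 3, by 0.96 ± 0.12 (adjusted p = 1.23e-05). Cfap161, a gene of cilia and flagella, was at 13.0 and 17.5 CPM in segment 2 and 6.10 and 9.20 CPM in segment 3 (1.02 ± 0.12, adjusted p = 4.86e-06, 0.0328 in the 6 ligated libraries). Stac2 was at 36.4 and 21.0 CPM in segment 2 and 17.7 and 12.9 CPM in segment 3 (0.89 ± 0.09), and Sap30, a subunit of the Sin3 histone deacetylase complex, at 6.53 and 7.26 CPM in segment 2 and 3.12 and 3.89 CPM in segment 3 (0.99 ± 0.17). Dusp5, a phosphatase that acts on the ERK kinases, was at 7.26 and 5.62 CPM in segment 2 and 2.49 and 3.69 CPM in segment 3 (1.07 ± 0.21). The rest were Fam167a, B3gnt8, a glycosyltransferase gene, Timd2, a ferritin receptor gene, and Degs2, a sphingolipid desaturase gene, together with Wfdc3, Cst12 and Gldc. Gldc, a subunit of the glycine cleavage system, was at 27.7 and 1.41 CPM in segment 2 and 10.2 and 0.278 CPM in segment 3: the batches lay further apart than the segments, and within each batch segment 2 was higher (1.59 ± 0.17, adjusted p = 2.44e-06). In the 12-library fit without segment 2 of batch 3017, which no longer pairs the segments in that batch, the direction of Gldc turned, to -0.80. For 10 of the 12 genes both libraries of segment 2 were above both of segment 3, the exceptions being Gldc and Cst12.

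Enzymes that act on peroxides and xenobiotics were called in 1 direction. Of 37 antioxidant genes tested, 7 were higher in segment 2 (18.9%) and 0 in segment 3, against 3.32% and 3.72% of all genes. The median log2 difference over the list was 0.04. Gsta4, which detoxifies lipid aldehydes, was at 41.0 and 40.05 CPM in segment 2 and 23.9 and 23.6 CPM in segment 3, the batches nearly equal and the segments apart (0.78 ± 0.08, adjusted p = 5.49e-07, 0.00341 in the 6 ligated libraries). Gpx3 was at 1027 and 848 CPM in segment 2 and 652 and 655 CPM in segment 3 (0.52 ± 0.08, adjusted p = 0.00021). Gpx5 was not called, at 33810 and 45540 CPM in segment 2 and 35370 and 43370 CPM in segment 3: here the batches differed and the segments overlapped (0.01 ± 0.07, adjusted p = 0.961). Pemt, which makes phosphatidylcholine, was higher in segment 3, at 80.3 and 64.0 CPM in segment 2 and 155 and 130 CPM in segment 3 (-0.98 ± 0.07, adjusted p = 3.03e-09, 0.00079 in the 6 ligated libraries), and Ecm1, a secreted matrix glycoprotein, was likewise higher there, at 51.1 and 44.4 CPM in segment 2 and 116 and 96.4 CPM in segment 3 (-1.14 ± 0.07).

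Of 27 lysosomal genes tested, 11 were called higher in segment 2 (40.7%) and 0 in segment 3, against 3.32% and 3.72% of all genes. The median log2 difference over the list was 0.19. Ctsa, which protects lysosomal neuraminidase, was at 125 and 144 CPM in segment 2 and 76.9 and 103 CPM in segment 3. Both segment 2 libraries were above both of segment 3 (0.60 ± 0.07, adjusted p = 8.33e-06). Man2b1, a mannosidase of glycoprotein breakdown, was at 212 and 229 CPM in segment 2 and 156 and 186 CPM in segment 3 (0.38 ± 0.07), and Tpp1, a peptidase, at 123 and 128 CPM in segment 2 and 96.3 and 101 CPM in segment 3 (0.36 ± 0.07). The other 8 called members, Ctsz, Ctsl, Hexa, Neu1, Glb1, Fuca1, Gaa and Manba, differed by 0.24 (Manba) to 0.51 (Ctsz). In the same 4 libraries DESeq2 called 7 of the 27 and limma-voom 1, and none of the 11 was called by edgeR in the 6 ligated libraries. Lamp1, a membrane protein of the lysosome chosen after its values were seen, was not called, at 1529 and 1478 CPM in segment 2 and 1560 and 1498 CPM in segment 3.

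Transport and signalling genes were called in both directions. Of 34 ion, bicarbonate and water transport genes, 6 were higher in segment 2 (17.6%) and 4 in segment 3 (11.8%), against 3.32% and 3.72% of all genes. Atp2b1, a plasma membrane calcium pump, was at 139 and 153 CPM in segment 2 and 212 and 236 CPM in segment 3, with the segments apart and the batches close (-0.60 ± 0.07, adjusted p = 3.99e-06). Its unadjusted p in the 12-library fit, 4.2e-05, was the lowest of the genes named here, and its adjusted p there was 0.371. Scnn1a, a subunit of the epithelial sodium channel, was at 158 and 163 CPM in segment 2 and 103 and 134 CPM in segment 3 (0.46 ± 0.08), and Aqp1, a water channel, at 7.41 and 11.6 CPM in segment 2 and 4.66 and 6.98 CPM in segment 3 (0.71 ± 0.14). Of 46 growth factors and receptors, 8 were higher in segment 2 (17.4%) and 1 in segment 3 (2.17%), against 3.32% and 3.72% of all genes. Inhba, an activin subunit, was at 15.1 and 16.5 CPM in segment 2 and 9.85 and 9.51 CPM in segment 3 (0.72 ± 0.11), with no overlap. Egf, the 1 member of that list called higher in segment 3, was at 26.6 and 20.8 CPM in segment 2 and 43.6 and 33.2 CPM in segment 3 (-0.68 ± 0.08). The transcription factor genes Fosl2, of the AP-1 family, and Elf5, of the ETS family, were both higher in segment 3 and were also called in the 6 ligated libraries. Fosl2 was at 38.8 and 34.2 CPM in segment 2 and 69.1 and 58.5 CPM in segment 3 (-0.79 ± 0.07, adjusted p = 1.55e-07). Elf5 was at 4.46 and 7.60 CPM in segment 2 and 10.01 and 15.4 CPM in segment 3 (-1.08 ± 0.13, adjusted p = 7.74e-06).

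The initial segment is the most proximal stretch of the epididymis. Of 24 initial segment genes tested, 4 were called higher in segment 2 (Cst12, Lcn8, Lcn9 and Defb48) and 2 higher in segment 3 (Ovch2 and Ros1). These shares were 16.7% and 8.33%, against 3.32% and 3.72% of all genes. Defb48 and Lcn9 were called at low levels. Defb48 was at 2.31 and 1.56 CPM in segment 2 and 0.943 and 1.01 CPM in segment 3 (adjusted p = 0.0396, 0.232 in the 6 ligated libraries). Ros1, a receptor kinase, was at 193 and 171 CPM in segment 2 and 264 and 234 CPM in segment 3 (-0.44 ± 0.07, adjusted p = 0.00021), and Ovch2 at 27.4 and 25.7 CPM in segment 2 and 44.6 and 36.3 CPM in segment 3 (-0.59 ± 0.08, 0.0257 in the 6 ligated libraries). The ETS factor gene Etv4 was at 0.337 and 0.876 CPM in segment 2 and 0.393 and 0.278 CPM in segment 3. Its relative Etv5 was at 1.19 and 1.70 CPM in segment 2 and 1.47 and 1.85 CPM in segment 3. Neither was called at these low levels. Of 24 ERK feedback and ETS target genes, 2 were called in each direction (8.33%, against 3.32% and 3.72% of all genes).

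**Figure D3:**
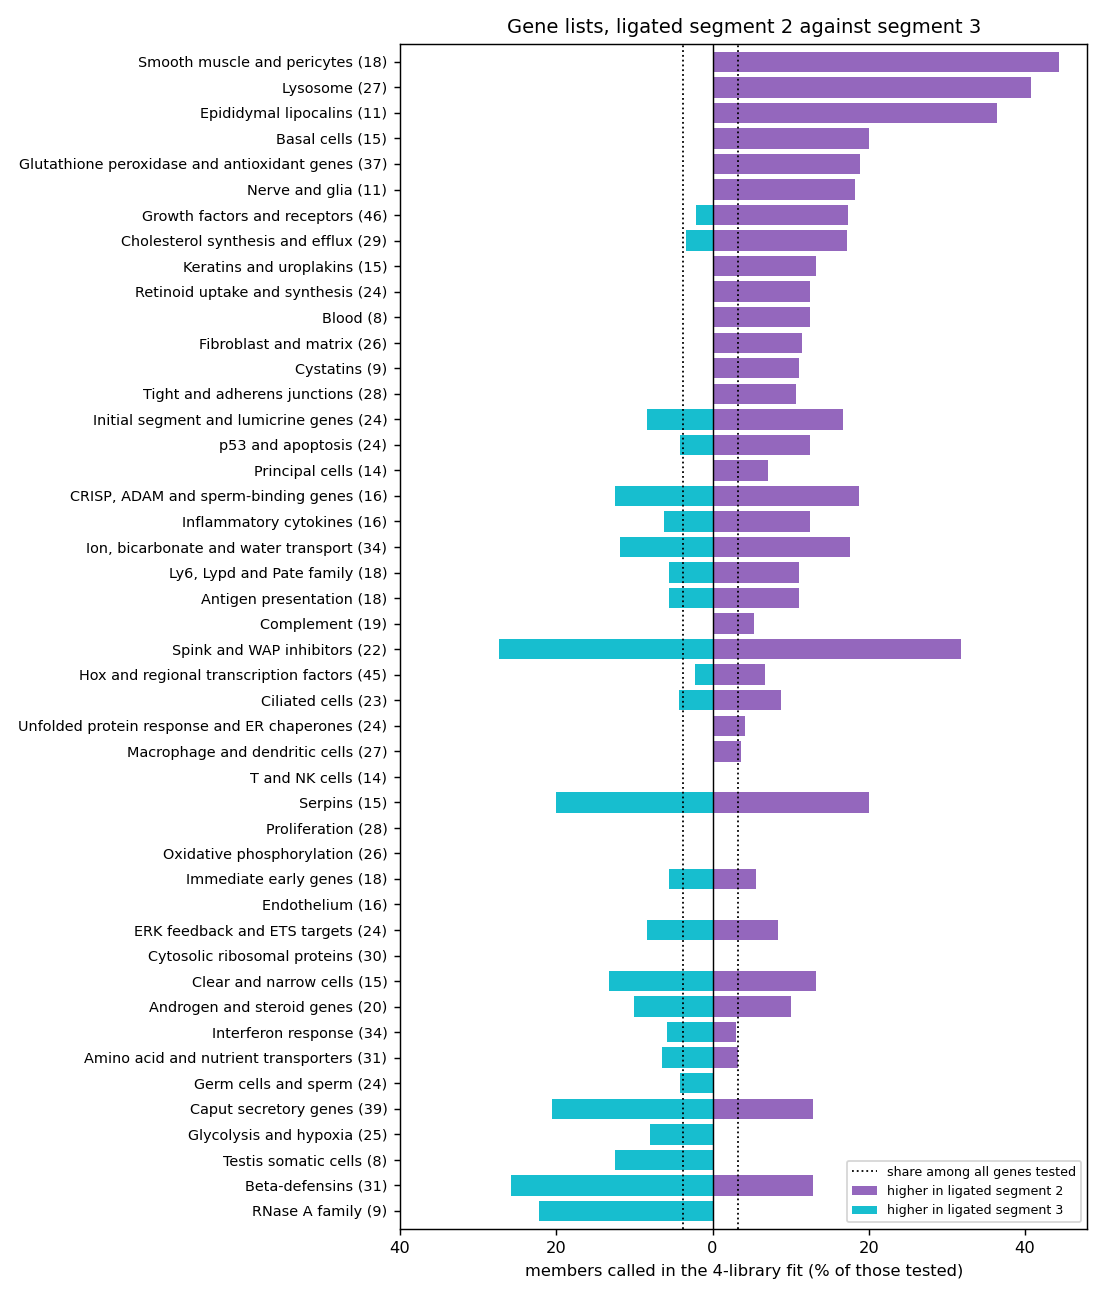
Share of each list's tested members (number in parentheses) called in the 4-library fit, to the right where higher in ligated segment 2 and to the left where higher in ligated segment 3, for lists with at least 8 tested members; dotted lines mark 3.32% and 3.72%, the shares among all genes tested. Smooth muscle, lysosome and lipocalin genes extend to the right alone, and beta-defensin, Spink and WAP genes extend to both sides.

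Markers of smooth muscle, which wraps the duct, differed between the segments in 1 direction. Of 18 tested, 8 were called higher in segment 2 (44.4%) and 0 in segment 3, against 3.32% and 3.72% of all genes. The median log2 difference over the list was 0.41. Tagln was at 79.0 and 99.1 CPM in segment 2 and 59.6 and 63.5 CPM in segment 3 (0.54 ± 0.07, adjusted p = 3.31e-05, 0.0219 in the 6 ligated libraries). Myl9 was at 75.1 and 86.9 CPM in segment 2 and 62.0 and 57.3 CPM in segment 3 (0.45 ± 0.08) and Des at 32.9 and 32.9 CPM in segment 2 and 25.6 and 23.4 CPM in segment 3 (0.44 ± 0.08). For all 3 genes both segment 2 libraries were above both of segment 3, and the step was larger in batch 3097. In the same 4 libraries DESeq2 called 4 of the 18 and limma-voom 0. The summed level of the 18 genes was 795 and 940.4 CPM in segment 2 and 706 and 686 CPM in segment 3. In RNA of whole tissue, fewer cells of a type and less RNA per cell cannot be told apart.

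Markers of other cells differed in how often they were called, against 3.32% and 3.72% of all genes higher in segment 2 and in segment 3. Of 27 macrophage and dendritic cell genes 1 was called (3.7%), Cd68, at 74.8 and 132 CPM in segment 2 and 47.9 and 76.7 CPM in segment 3 (0.73 ± 0.07, adjusted p = 4.2e-07), and the list summed to 256 and 318 CPM in segment 2 and 206 and 247 CPM in segment 3. Adgre1, a defining macrophage gene, was at 5.62 and 6.99 CPM in segment 2 and 3.83 and 5.59 CPM in segment 3 (adjusted p = 0.115). Of 15 basal cell genes 3 were called higher in segment 2 (20%), among them Krt5 at 110.4 and 155 CPM in segment 2 and 99.8 and 117 CPM in segment 3 (0.29 ± 0.07), of 26 fibroblast and matrix genes 3 (11.5%) and of 11 nerve and glia genes 2 (18.2%). In the same 4 libraries DESeq2 and limma-voom called 0 of the basal cell, fibroblast and matrix, and nerve and glia genes. In the 6 ligated libraries edgeR also called 0 of them. Of 16 endothelial genes edgeR called 0, with 3 at an unadjusted p under 0.05, and DESeq2 and limma-voom called 0. Median log2 differences were 0.347 in endothelial, 0.371 in T and NK cell, 0.232 in macrophage and dendritic cell and 0.205 in basal cell genes. Those of principal cell genes and of clear and narrow cell genes were 0.0581 and -0.0138. Medians of the within-batch log2 ratios were 0.0647 and 0.411 in endothelial and 0.142 and 0.153 in T and NK cell genes. They were 0.167 and 0.128 in macrophage and dendritic cell and 0.0675 and 0.191 in basal cell genes. The T and NK cell genes were near the floor, summing to 9.95 and 12.6 CPM in segment 2 and 8.02 and 9.76 CPM in segment 3. Among 14 principal cell markers 1 was called, higher in segment 2. The list summed to 58340 and 67550 CPM in segment 2 and 65330 and 70120 CPM in segment 3. That sum was higher in segment 3 within each batch, with overlapping groups. Germ cell genes were called in 1 of 24, higher in segment 3. The part of these cell types in the gene differences above was not tested. 

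Of 29 genes of cholesterol synthesis and efflux, 5 were higher in segment 2 (17.2%, against 3.32% of all genes) and 1, the lipoprotein receptor gene Lrp8, in segment 3 (3.45%, against 3.72%). Of 34 interferon response genes 1 was higher in segment 2 (2.94%) and 2 in segment 3 (5.88%), one of them Irf7, a transcription factor of that response, at 21.0 and 15.8 CPM in segment 2 and 29.6 and 28.0 CPM in segment 3 (-0.65 ± 0.09, 0.0328 in the 6 ligated libraries). Of 45 Hox and regional transcription factors, Hoxc6, Hoxc8 and Hoxd4 were higher in segment 2 (6.67%) and Pax2 in segment 3 (2.22%). Pax2, known for its part in forming the duct, was at 82.4 and 44.3 CPM in segment 2 and 116 and 61.2 CPM in segment 3 (-0.47 ± 0.07, adjusted p = 8.44e-05). Of 30 cytosolic ribosomal protein genes edgeR's 4-library fit called 0, with 6 at an unadjusted p under 0.05, while DESeq2 called 1 and limma-voom 0. Of 26 genes of oxidative phosphorylation and 28 proliferation genes all 3 tools called 0, with 2 and 1 at an unadjusted p under 0.05 in edgeR.

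The batches gave mostly the same directions but not the same sizes. Of 10882 genes whose mean over the 4 libraries reached 5 CPM, 68% differed in the same direction in both batches, and the within-batch log2 ratios correlated across genes at r = 0.597 (Spearman's rho 0.53). These genes come from the same 4 libraries and are not independent. Of 59 genes at least 2-fold higher in segment 3 in batch 3017, 58 were higher there in batch 3097, and 43 of them by at least 2-fold. Of 48 genes at least 2-fold higher in segment 2 in batch 3017, 45 were higher in segment 2 in batch 3097, but only 2, Crisp1 and Gldc, by at least 2-fold. Of the 45 genes that passed 2-fold in both batches, 27 were called and 18 were not.

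The 18, chosen after their values were seen, had steps that were large in both batches but unequal. Crisp1, which encodes a cysteine-rich protein that binds to sperm, was at 157 and 128 CPM in segment 2 and 31.0 and 10.8 CPM in segment 3. It alone among the 18 was higher in segment 2, and all the others were higher in segment 3. Both its segment 2 libraries were far above both of segment 3, yet its spread was wide (2.93 ± 0.60, adjusted p = 0.397, unadjusted p = 0.0119 in the 12-library fit). Crisp4 of the same family ran the other way, at 44.1 and 9.91 CPM in segment 2 and 155 and 123 CPM in segment 3 (-2.64 ± 0.90, adjusted p = 0.521). Defb30 was at 529 and 6.60 CPM in segment 2 and 1155 and 514 CPM in segment 3. Syk, a tyrosine kinase gene, was at 103 and 3.34 CPM in segment 2 and 269.8 and 149.5 CPM in segment 3. In both, segment 2 of batch 3097 was far below the other 3 libraries. Muc5b, a gel-forming mucin, showed the same pattern at 218 and 25.2 CPM in segment 2 and 636 and 319 CPM in segment 3. Ntsr2, a neurotensin receptor gene, was more even, at 163 and 68.0 CPM in segment 2 and 608 and 446 CPM in segment 3. Rnase9 was 2-fold apart in batch 3097 but not in batch 3017, at 1675 and 10.7 CPM in segment 2 and 3147 and 1010 CPM in segment 3 (-3.63 ± 3.46, adjusted p = 0.774).

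Among the same 10882 genes, the ratio of the segments differed by at least 2-fold between the batches for 70, of which edgeR's 4-library fit called 0. Below that mean some called genes also had unequal ratios, such as Drd4, with log2 ratios of -1.03 and -2.09, and Trnp1, with -1.55 and -2.56. In 58 of the 70 the excess of segment 3 was larger in batch 3097, and in 40 of these segment 2 was at least 2-fold higher in batch 3017 than in batch 3097. Lcn10 was among the other 12, at 358 and 239 CPM in segment 2 and 39.3 and 200 CPM in segment 3, with segment 3 of batch 3017 as the low library. Segments 2 and 3 shared much of the difference between batches. It reached 2-fold for 152 genes in segment 2 and 141 in segment 3, and 107 genes passed in both in the same direction. The other groups had 15 such genes in ligated segment 1 and 84, 450 and 157 in control segments 1, 2 and 3. Across genes the difference between batches correlated at r = 0.752 between ligated segments 2 and 3, and at -0.0554 to 0.416 between any other pair of groups. Slc7a11, a cystine transporter gene chosen for its difference between batches, was at 91.5 and 1.63 CPM in segment 2 and 159 and 9.08 CPM in segment 3, and segment 3 was higher within each batch. Slc39a8, a metal transporter gene chosen likewise, was at 139 and 1.85 CPM in segment 2 and 196 and 11.9 CPM in segment 3. Both were far lower in batch 3097 in each segment. The 4-library fit called 2599 genes between batches, 993 higher in 3097 and 1606 higher in 3017, and 458 of them were also called between segments.

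**Figure D4:**
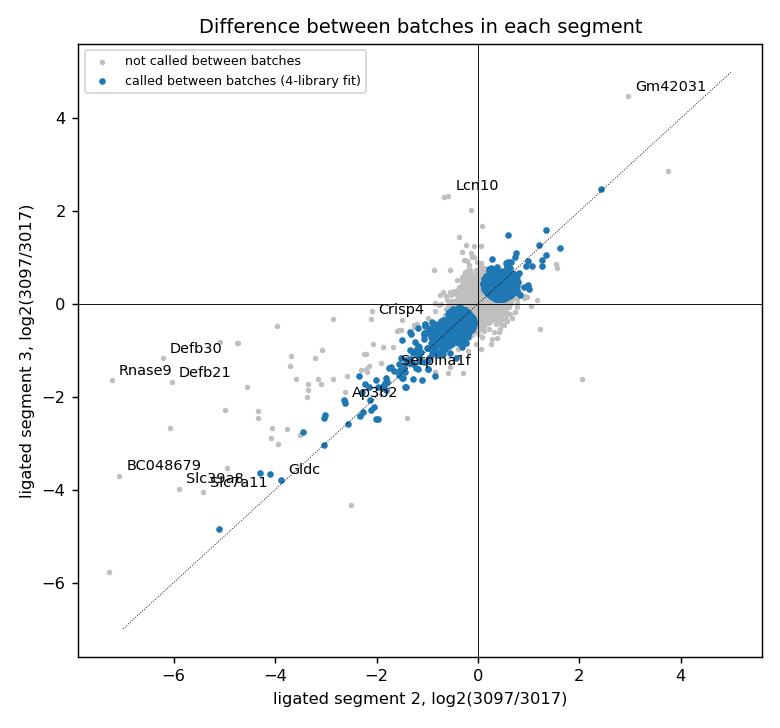
Each point is a gene whose mean over the 4 libraries reached 5 CPM; the axes give log2(batch 3097/batch 3017) in ligated segment 2 (horizontal) and ligated segment 3 (vertical), from CPM plus 0.5, with the dotted line at equal differences, blue for genes called between batches and grey for the rest. Genes called between batches follow the line, while Rnase9, Defb30, Defb21 and Crisp4 lie above it, since batch 3097 was lower by more in segment 2 than in segment 3.

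The same 2 segments were compared in control tissue with the 12-library fit, which called 343 genes there (1.79%), 175 higher in segment 2 and 168 higher in segment 3. The ligated and control comparisons share no library. Of the 1353 genes called after ligation, 951 differed in the same direction in control tissue (70.3%, against 56.8% of all genes tested). In control tissue 75 of them were called in that direction and 4 in the opposite one. Of the 12 steepest genes toward segment 3, 10 were higher in segment 3 in both control batches, the exceptions being Trnp1 and Evx1os. Rnase13 was at 4.68 and 23.9 CPM in control segment 2 and 123 and 447 CPM in control segment 3. Spink2 was at 7.95 and 21.8 CPM in control segment 2 and 82.4 and 200.1 CPM in control segment 3. In control tissue, too, segment 3 was higher in both batches, and the control batches were further apart than the ligated ones. Fosl2 was at 10.7 and 13.6 CPM in control segment 2 and 32.9 and 50.6 CPM in control segment 3, called in control tissue (adjusted p = 0.0191) as well. Of the 12 steepest genes toward segment 2, 5 were higher in segment 2 in both control batches. Crisp1 was at 9.22 and 12.04 CPM in control segment 2 and 5.85 and 23.5 CPM in control segment 3, with the control batches running in opposite directions.

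Whether the step between the segments differed between ligated and control tissue was tested as a difference of differences. edgeR's 12-library fit called 0 of 19213 genes (0%), with 1917 at an unadjusted p under 0.05 and a smallest adjusted p of 0.31, and DESeq2 called 157. A fit of the 8 libraries with batch terms of their own for ligated and control tissue called 31. Left out 1 at a time, the libraries gave 0 or 1 calls, except that 1125 genes were called without control segment 2 of batch 3097. Tagln was at 66.6 and 75.7 CPM in control segment 2 and 60.9 and 73.8 CPM in control segment 3, nearly level, and its unadjusted p for the difference was 0.00449. For Ovch2, at 349 and 132 CPM in control segment 2 and 84.0 and 63.7 CPM in control segment 3, the control direction was opposite to the ligated one in both batches (unadjusted p = 0.002). None of these differences passed the adjustment.

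**Figure D5:**
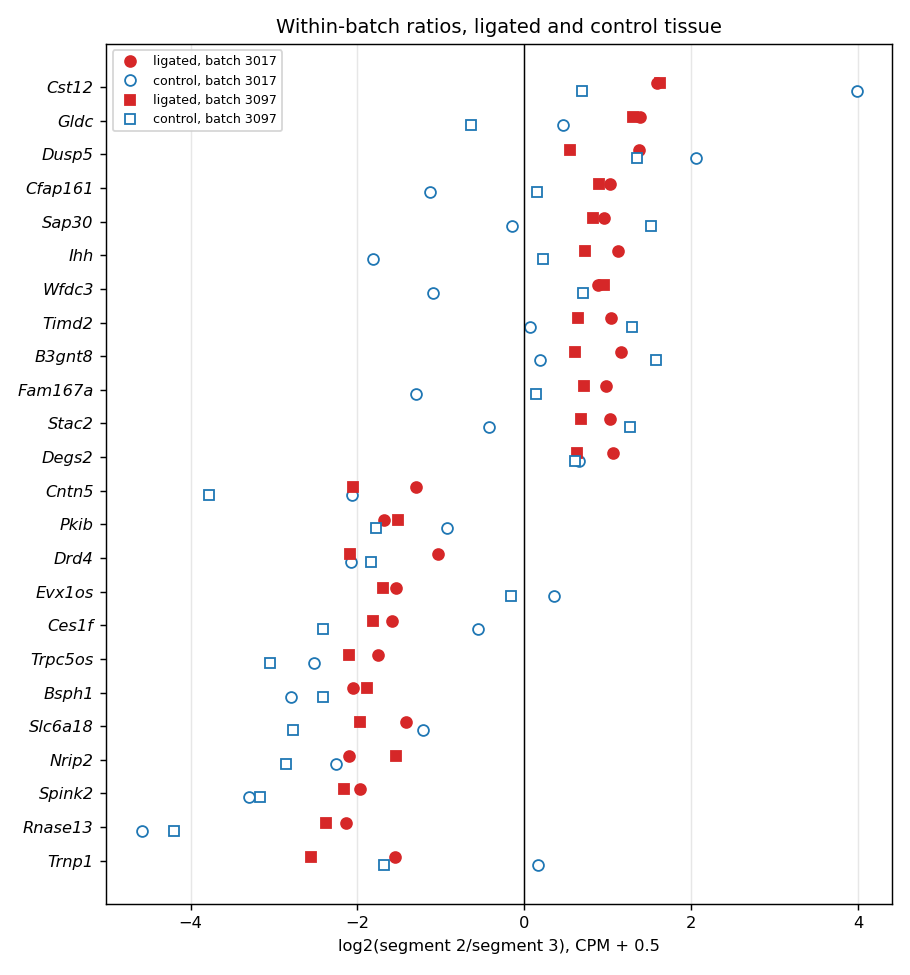
Within-batch log2(segment 2/segment 3), from CPM plus 0.5, of the 12 steepest genes in each direction after ligation, in ligated (filled) and control (open) tissue, with circles for batch 3017 and squares for batch 3097. Filled marks of Cst12, Gldc and Wfdc3 lie close together and those of Trnp1 and Drd4 far apart. For Rnase13, Spink2 and Bsph1 all 4 marks lie left of 0, while open marks of the genes toward segment 2 lie on both sides of 0.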

How the data were processed

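Polyadenylated RNA of 12 libraries, each from a pool of 2 mice and 500 ng of RNA with a directional kit, had been sequenced in 2 batches of 6. The deposited values are raw read counts per gene. Per the submitters' processing notes, reads were trimmed with Trim Galore 0.6.0 and cutadapt, checked with FastQC and aligned with STAR 2.7.0e to GRCm38 (mm10). No source used here names the program that counted the reads, whether it used strand, or the gene models. Symbols and positions came from GENCODE M21, in which all 55536 identifiers matched, and promoters from RefSeq (GRCm38.p6).

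The main test was edgeR 4.0.16 (R 4.3.3) quasi-likelihood on 12 libraries, with group and batch, TMM scaling and a minimum count of 10 (19213 genes), and Benjamini-Hochberg adjustment at 0.05. As it called 0 genes, the calls and the rules that choose named genes were taken from the paired fit of the 4 libraries alone, a choice made after seeing this result. Named genes were the 12 largest differences each way, the 8 most abundant called genes of at least 2-fold, up to 3 members of each list each way and listed reference genes. Chosen after their values were seen were the chromosomal clusters, genes with unequal steps in the 2 batches (Defb21, Defb30, Lcn10, Muc5b, Ntsr2, Rnase9, Syk), Slc7a11, Slc39a8, Adgre1, Lamp1 and the remaining lysosomal and WAP-domain genes. The members and lists were chosen with earlier results of these data known.

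Batch, per the file headers, pairs the libraries: the deviations of ligated segments 2 and 3 from their group means correlated at 0.752, and those of the other pairs of groups at -0.0554 to 0.416. The replicate numbers in the labels are not tied to the batches. DESeq2 1.42.0 and limma-voom 3.58.1 were alternatives, as were other scalings, filters, libraries and left-out libraries. In tests on simulated counts whose spread differed between genes, 40 of 210 calls of the 4-library fit were false (19%). The fit of the 6 ligated libraries made 35 false calls of 195 (17.9%), and that of the 12 libraries 14 of 142 (9.86%). These shares were above the nominal one. With a spread that followed a common trend, the shares were 2.73%, 7.78% and 2.34% in the same order. Depths of 36352153 to 39650919 counts give little counting error above a few CPM, so the precision rests on 2 libraries a group.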

Additional observations from a re-analysis of the deposited data

Results flagged for a closer look

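For 8 of the called genes reported above, both batches placed the ligated segments in one order and both placed the control segments in the opposite order. The difference of the log2 steps (ligated minus control, edgeR's 12-library fit) did not pass the adjustment for any of them. Toward segment 2 after ligation it was 1.69 for Cd68 (unadjusted p = 0.0396), 1.33 for Gpx3 (0.113), 0.904 for Ctsl (0.0145), 0.716 for Manba (0.00159) and 0.49 for Gaa (0.0504). Toward segment 3 it was -3.98 for Ly6g5b (0.0177), -2.24 for Ovch2 (0.002) and -1.05 for Rnase12 (0.0601). Etv5, which was not called between the ligated segments, had opposite orders too. Its difference was -3.64 (unadjusted p = 0.0369, adjusted p = 0.477 in the same test). Ly6g5b was at 547 and 84.0 CPM in control segment 2 and 41.0 and 52.4 CPM in control segment 3, and Cd68 at 13.5 and 48.6 CPM in control segment 2 and 52.6 and 56.7 CPM in control segment 3.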

How the results depend on the processing

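The number of called genes depended on the libraries in the fit more than on scaling or filter. Against 0 in the 12 libraries, DESeq2 called 31, the 4 libraries with batch as a replicate block 1353 and the 6 ligated libraries 152. The 8 libraries of segments 2 and 3 gave 0 in edgeR, with a smallest adjusted p of 0.789. The 12 libraries with a batch term of their own for ligated segments 2 and 3 also gave 0, with 0.0623. In the 4 libraries DESeq2 called 555, limma-voom 186 and the fit with no replicate block 4, while other scalings and filters gave 1326 to 1810. In the 12 libraries the fit with no replicate block also called 0 genes. With 1 of the 4 libraries left out, the 6-library fit called between 8 (without segment 2 of batch 3097) and 250 (without segment 3 of batch 3097). It called 20 without segment 2 and 38 without segment 3 of batch 3017. The 4-library fit cannot lose a library, since no residual degree of freedom remains. The difference between ligated and control tissue gave 157 genes with DESeq2, 31 with a replicate block within each tissue and 0 to 1125 with 1 library left out, 1125 without control segment 2 of batch 3097 and 1 without that of batch 3017. The cause of these changes was not tested, apart from the fewer samples in each fit. In fits that leave out a library, the lone library of its group is assumed to vary like the others. Without 1 of the 4 libraries the segments are no longer paired in its batch, and a batch term shared by all groups of the fit takes that place. Differences between batches correlated at r = 0.752 between ligated segments 2 and 3, but at -0.0554 to 0.416 between other pairs of groups.

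Directions in the 12-library fit turned for 11 named genes. With library totals alone the log2 difference was 0.0352 for Lamp1 and 0.0282 for Spink12. With 1 library left out it ran from -0.0618 to 0.0144 for Lamp1, -0.27 to 0.24 for Spink12, -0.13 to 0.13 for Gpx5, -0.50 to 5.10 for Prm2, -0.33 to 1.80 for Etv4 and -1.04 to 0.56 for Etv5. It ran from -4.85 to 1.42 for Slc39a8, -4.98 to 1.54 for Slc7a11, -0.80 to 4.48 for Gldc, -8.14 to 0.0752 for Rnase9 and -2.99 to 0.50 for Serpina1f. Depth limits low genes such as Etv4 and Prm2, which were under 1 CPM in the 4 libraries.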
